A study of Homo sapiens with 12 samples.

Results

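The 10 genes described here encode regulators that keep epithelial cells epithelial: the ETS factors ELF3 and EHF, the grainyhead-like factors GRHL1 and GRHL2, the zinc finger factors OVOL1 and OVOL2, the splicing regulators ESRP1 and ESRP2, and the Krüppel-like factors KLF4 and KLF5. They were chosen by name, and all 10 were found among the 62703 genes of the count table. H69 is an immortalised line of human bile duct epithelium (cholangiocytes), and its RNA was sequenced in bulk. Cells of 1 line were starved of serum for 6 h and then kept overnight in serum-free medium in 4 groups of 3 libraries: vehicle, TGFβ (10 ng/mL), Aramchol (30 µM), or TGFβ + Aramchol. The doses are given once for the series and were taken to hold for each treated group. The labels do not name the vehicle, nor do they tie the 3 libraries of a group to separate cultures. The p-values below therefore rest on a spread between libraries that could be technical.

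Epithelial identity is held by transcription factors that switch on adhesion and polarity genes and by factors that hold down the mesenchymal programme. GRHL and OVOL factors are known for opposing the E-box repressors of the ZEB family, ELF3 and EHF for driving epithelial gene expression, and KLF4 and KLF5 for control of epithelial growth and differentiation. ESRP1 and ESRP2 bind RNA and select the epithelial exons of transcripts such as FGFR2 and CD44. TGFβ is a cytokine well known for driving epithelial-mesenchymal transition, in which such regulators are often lost. Aramchol is a conjugate of a bile acid and a fatty acid that inhibits stearoyl-CoA desaturase. The comparisons ask how TGFβ acts on these regulators and whether Aramchol alters that.

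Libraries held 52279922 to 70339925 counts. Levels are given as CPM, counts per 1e6 of the effective library size (total count times the TMM scaling factor), so that they match the fitted fold changes. A count of 3, used as a floor, corresponds to 0.0410 to 0.0548 CPM. Of 10 cholangiocyte markers, KRT7 was abundant (506 ± 99.3 to 938 ± 78.1 CPM over the 4 group means, SD, n = 3), and KRT19, EPCAM and SOX9 were expressed. CFTR and SCTR, which are also defining for bile duct cells, had 10 or fewer counts in every library. The 4 libraries numbered 3 stood apart from the others. Of the libraries of its group, the one numbered 3 had the lowest ELF3, EHF and ESRP2 level in 4 of 4 groups and the lowest KLF4 level in 3 of 4 groups, whereas it had the highest GRHL1 level in 3 of 4 groups. Fold changes below are on the log2 scale from edgeR's quasi-likelihood test with Benjamini-Hochberg adjustment over 21567 tested genes, and a gene is called at an adjusted p under 0.05.

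The 10 regulators spanned more than 3 orders of magnitude once their counts were scaled by exon length. In vehicle, KLF4 stood at 23.4 ± 1.48 RPKM and KLF5 at 12.5 ± 0.789 RPKM (CPM per kilobase of exon, SD, n = 3). ELF3 followed at 4.60 ± 0.386 and ESRP2 at 3.78 ± 0.851 RPKM, and these did not differ beyond their spread. GRHL1 was at 1.46 ± 0.137 and EHF at 0.551 ± 0.251 RPKM. The remaining regulators were close to the detection limit: OVOL2 at 0.0805, GRHL2 at 0.0282, ESRP1 at 0.0176 and OVOL1 at 0.0118 RPKM. Of the chosen GRHL pair and of the ESRP pair, 1 member was far above the other, and both chosen OVOL members were low. GRHL3, a grainyhead-like factor outside the 10, stood at 0.422 RPKM in vehicle. The pooled length-scaled ratio of ESRP2 to ESRP1 was 209 in vehicle, 237 with TGFβ, 271 with Aramchol and 191 with both, and that of GRHL1 to GRHL2 was 52.2, 62.7, 43.9 and 44.9. With TGFβ, ELF3 dropped in this order from the third to the fifth place, at 0.834 ± 0.0860 RPKM, under ESRP2 (2.99 ± 0.0983) and GRHL1 (1.10 ± 0.0640).

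**Figure D1:**
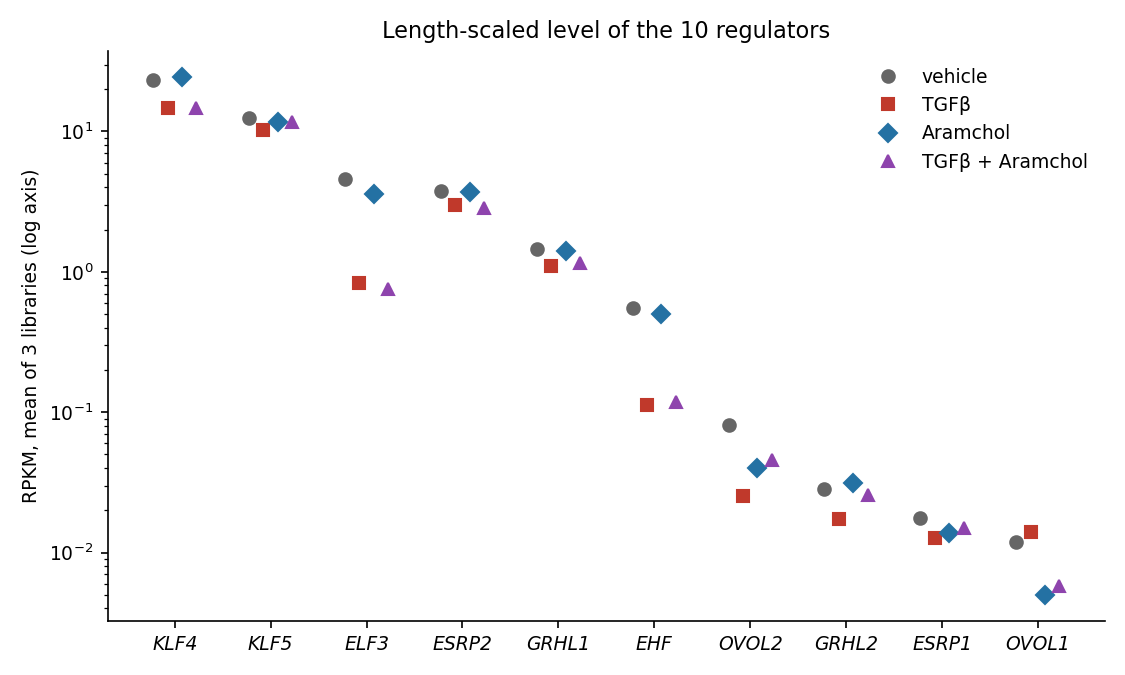
Mean length-scaled level (RPKM, log axis) of each of the 10 regulators in the 4 groups of 3 libraries, ordered by the vehicle level. KLF4 and KLF5 lead in every group, ELF3 and EHF show the widest gap between groups with and without TGFβ, and OVOL2, GRHL2, ESRP1 and OVOL1 lie under 0.1 RPKM.

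TGFβ against vehicle lowered 5 of the 8 tested regulators and raised 0 of them. Among all tested genes, 18.1% were called lower and 18.9% higher (3908 and 4070 genes, which upper quartile scaling turned to 4553 and 3601). ELF3 and EHF fell about 5-fold, KLF4 1.58-fold, GRHL1 1.32-fold and KLF5 1.22-fold. ESRP2, OVOL2 and GRHL2 had fold changes of -0.34, -1.62 and -0.68 that did not pass. At an unadjusted p under 0.05, 7 of the 8 were lower, where 22.9% of all tested genes were, and DESeq2 called the 5 genes that edgeR called. The median over the 8 was -0.67, against -0.03 over all tested genes. OVOL1 and ESRP1 had too few counts to be tested. Because RNA came from whole cultures, fewer cells expressing a gene and less RNA per cell cannot be told apart.

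**Figure D2:**
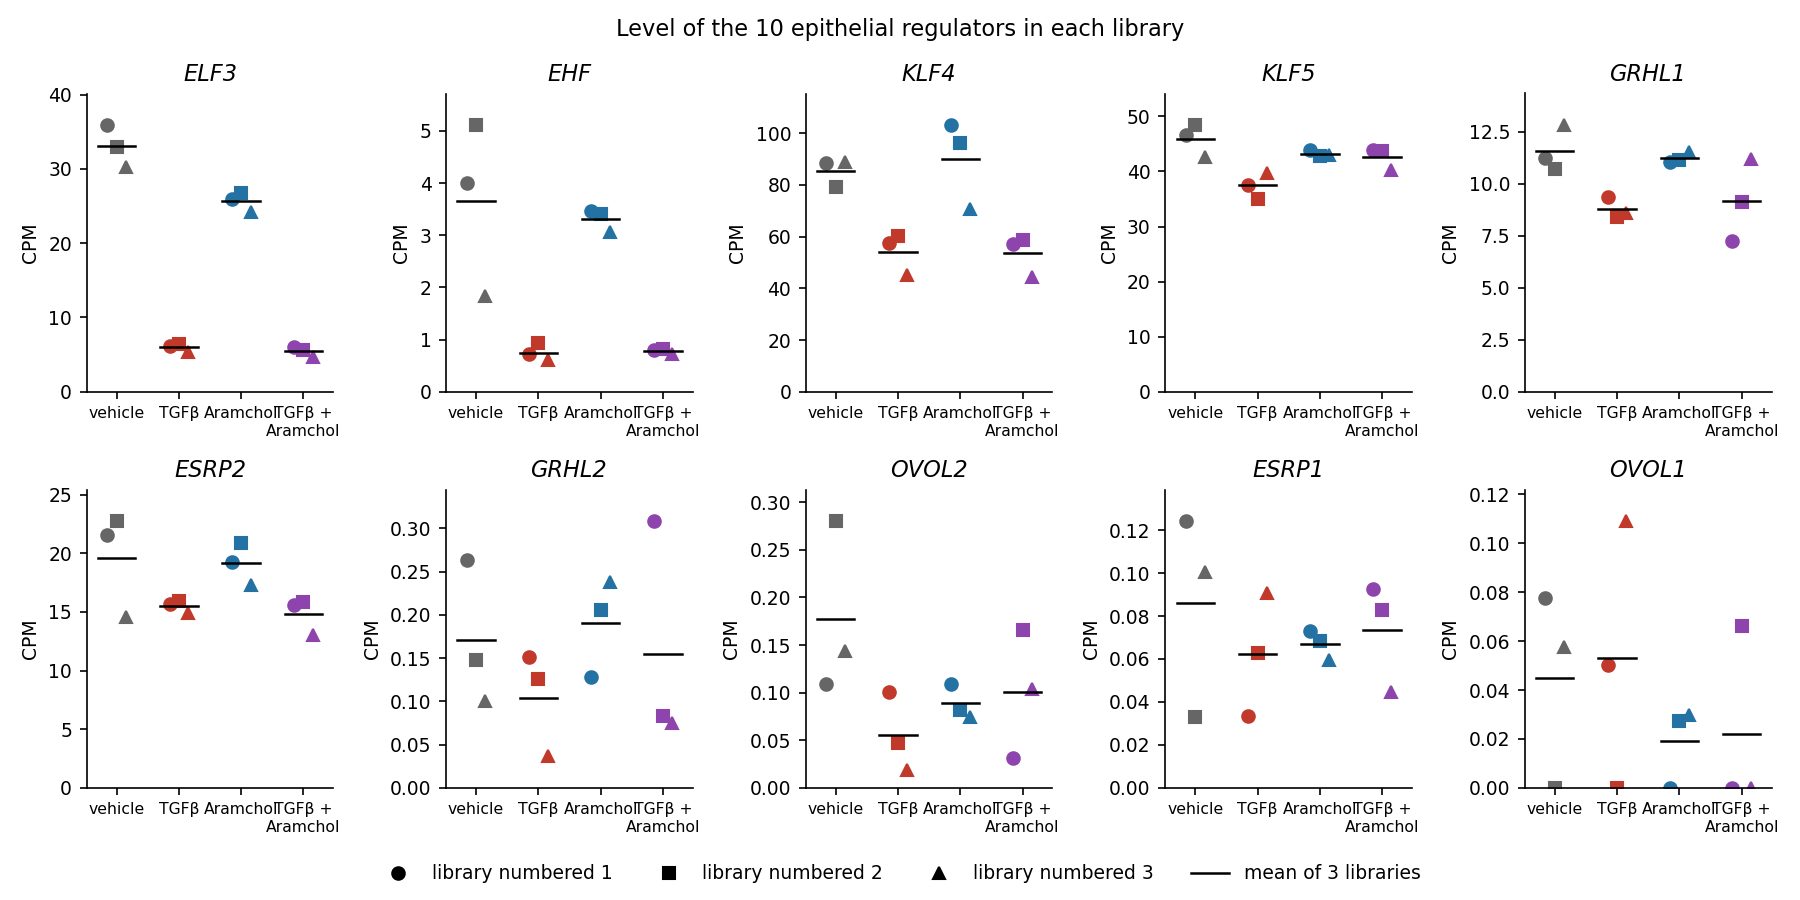
Level in CPM of each regulator in each library (points, with the shape giving the library number) and the mean of 3 libraries (bar), by group. ELF3, EHF and KLF4 lie lower in all 6 TGFβ-treated libraries than in all 6 others, whereas GRHL2, OVOL2, ESRP1 and OVOL1 stay under 0.31 CPM.

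ELF3 (ENSG00000163435, chromosome 1, 202007945 to 202017183, plus strand, GRCh38) is an epithelium-specific ETS factor. It stood at 35.8, 32.9 and 30.3 CPM in the vehicle libraries numbered 1 to 3 and at 6.19, 6.49 and 5.30 CPM with TGFβ. Levels were 26.0, 26.8 and 24.2 CPM with Aramchol and 6.08, 5.58 and 4.62 CPM with both. The TGFβ-treated libraries all lay under 7 CPM and the untreated ones over 24 CPM, with no overlap. The fold change of TGFβ against vehicle was -2.46 (SE 0.11, 95% interval -2.68 to -2.23), or 5.50-fold lower, with an adjusted p of 6.79e-11 (edgeR). It kept its call under all 21 alternative settings, at -2.52 to -2.38.

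ELF3 shares 664 exon bases with ELF3-AS1, a gene on the opposite strand, and the sources used here do not give the strand setting of the counting. Reads of this pair may therefore be split between them. ELF3 also shares 664 exon bases with ENSG00000249007 on the same strand, a gene with 0 to 13 counts per library. ELF3-AS1 was at 4.76 ± 0.248 CPM in vehicle and 2.71 ± 0.149 CPM with TGFβ (SD, n = 3) and was called lower too, by a fold change of -0.81 (edgeR adjusted p = 0.000236).

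EHF (ENSG00000135373, chromosome 11, 34621093 to 34663288, plus strand) is the closest relative of ELF3 in the set and was the less abundant of the pair. In vehicle it stood at 4.0, 5.10 and 1.84 CPM, with library 3 well under the other two, and with TGFβ at 0.721, 0.925 and 0.599 CPM. Aramchol libraries had 3.47, 3.40 and 3.06 CPM and those with both agents 0.801, 0.812 and 0.730 CPM. Despite the spread in vehicle, the groups with and without TGFβ did not overlap. The fold change was -2.27 (SE 0.29, 95% interval -2.90 to -1.64, edgeR adjusted p = 1.54e-05), and -2.59 without vehicle library 3. The length-scaled ratio of ELF3 to EHF was 8.49 in vehicle and 7.33 with TGFβ over the pooled libraries, and 5.94 to 15.2 over single vehicle libraries, so the change in this ratio was within the spread of vehicle.

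The bases before the RefSeq start sites (GRCh38.p14) were read for the regulators called with TGFβ. Of the 10 regulators, 5 had a RefSeq window (ELF3, EHF, GRHL1, KLF4 and KLF5), with 7 windows of 250 bases in all. Motifs searched on both strands were CAGGTG (the E-box read by ZEB and SNAI factors), AACCGGTT (grainyhead), CCGTTA (OVOL), GTCTAGAC (SMAD), GGGCGG (GC box), CACCC (CACC box of KLF factors) and GGAA (ETS core). A CAGGTG E-box occurred in 1 of the 7 windows, that of ELF3, against 17.49% of 35116 windows over all genes. It is shown in capitals within 30 bases of the plus strand, chr1:202010455-202010484, which end 103 bases before the start site. The 250-base window around them overlaps 1 exon of ELF3 in the table's annotation. The plus strand carries the site as its reverse complement.
ELF3: gaatatgcaaatCACCTGgggccaggagcc
The window before the first RefSeq start of EHF (chr11:34624007-34624256, plus strand) is shown as that of the other called ETS factor. It lies within the span of EHF and on none of its exons in the table, and holds 4 CACC boxes on the minus strand (capitals), a motif found in 54.71% of all windows.
EHF: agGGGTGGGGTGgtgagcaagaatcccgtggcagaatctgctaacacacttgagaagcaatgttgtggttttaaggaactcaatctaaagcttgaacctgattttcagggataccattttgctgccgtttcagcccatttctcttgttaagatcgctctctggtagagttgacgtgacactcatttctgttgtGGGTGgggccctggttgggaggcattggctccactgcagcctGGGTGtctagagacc
The capitals do not overlap each other. The second RefSeq window of EHF (chr11:34632316-34632565) is not shown and held 0 matches to the 7 motifs. AACCGGTT, CCGTTA and GTCTAGAC were in 0 of the 7 windows, against 0.1168%, 2.452% and 0.1823% of all windows, and GGAA was in 92.74% of all windows. A match is a run of letters and was not tested as a binding site.

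KLF4 (ENSG00000136826, chromosome 9, 107484852 to 107490482, minus strand) is a zinc finger factor of differentiating epithelia and the most abundant of the 10. Vehicle libraries were at 88.5, 79.4 and 88.9 CPM and TGFβ libraries at 57.6, 60.1 and 45.0 CPM. Aramchol libraries were at 103, 96.4 and 70.7 CPM, and those with both agents at 57.2, 58.8 and 44.5 CPM. The libraries with TGFβ lay under 61 CPM and those without over 70 CPM, with library 3 the lowest in all groups but vehicle. The fold change of TGFβ against vehicle was -0.66 (SE 0.14, 95% interval -0.95 to -0.37, edgeR adjusted p = 0.00112), and the call held under all 21 alternatives.

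The 250 bases before the RefSeq start of KLF4 (chr9:107489770-107490019, minus strand, GRCh38.p14) are shown because KLF4 is the most abundant of the called regulators. They hold no CAGGTG E-box, the only E-box form searched, and no CACC box. They fall within the span of KLF4 and on none of its exons in the table. Capitals mark the 4 GC boxes, read as GGGCGG or, for the other strand, CCGCCC. This motif is in 42.64% of all windows and had 3 matches in the window of GRHL1 and 2 in a window of KLF5.
KLF4: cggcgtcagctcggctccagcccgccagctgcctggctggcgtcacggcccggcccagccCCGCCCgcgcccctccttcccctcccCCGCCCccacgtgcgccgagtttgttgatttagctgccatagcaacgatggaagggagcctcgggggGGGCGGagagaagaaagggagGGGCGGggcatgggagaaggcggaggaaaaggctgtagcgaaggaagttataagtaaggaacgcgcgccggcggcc

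KLF5 (ENSG00000102554, chromosome 13, 73054976 to 73077541, plus strand), known for growth of basal and progenitor cells in epithelia, moved least of the called regulators. It stood at 46.6, 48.4 and 42.7 CPM in vehicle and at 37.6, 35.0 and 39.8 CPM with TGFβ. With Aramchol it was at 44.0, 42.8 and 43.0 CPM and with both at 43.8, 43.8 and 40.3 CPM. Only the 3 TGFβ libraries lay under 40 CPM, and those with both agents overlapped the Aramchol group. The fold change of TGFβ against vehicle was -0.29 (SE 0.06, 95% interval -0.43 to -0.16, edgeR adjusted p = 0.00178), called under all 21 alternatives. The pooled length-scaled ratio of KLF4 to KLF5 was 1.88 in vehicle, 1.47 with TGFβ, 2.08 with Aramchol and 1.26 with both.

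GRHL1 (ENSG00000134317, chromosome 2, 9951693 to 10002277, plus strand) is a grainyhead-like factor that activates desmosome and barrier genes. Vehicle libraries were at 11.2, 10.7 and 12.8 CPM, TGFβ libraries at 9.34, 8.37 and 8.59 CPM and Aramchol libraries at 11, 11.1 and 11.5 CPM. Those with both agents spread widely, at 7.24, 9.09 and 11.2 CPM. TGFβ and vehicle did not overlap, whereas the group with both agents overlapped every other group. The fold change of TGFβ against vehicle was -0.40 (SE 0.13, 95% interval -0.67 to -0.13, edgeR adjusted p = 0.0197). This call was lost without vehicle library 3 (0.0689), without TGFβ library 2 (0.0742) or without TGFβ library 3 (0.0583).

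GRHL2 (ENSG00000083307, chromosome 8, 101492439 to 101669726, plus strand), the grainyhead-like factor best known for guarding the epithelial state against ZEB1, was nearly silent in these cells. Counts were 17, 9 and 7 in vehicle, 9, 8 and 2 with TGFβ, 7, 15 and 16 with Aramchol and 20, 5 and 5 with both. All groups overlapped, and library 3 was the lowest of its group in 3 of 4 groups. The fold change with TGFβ was -0.68 with a 95% interval of -2.04 to 0.68 (edgeR adjusted p = 0.450), so a loss of up to 4-fold was not separable from no change at this depth.

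OVOL1 (ENSG00000172818, chromosome 11, 65787063 to 65797214, plus strand) and OVOL2 (ENSG00000125850, chromosome 20, 17956979 to 18059188, minus strand) encode repressors of mesenchymal genes. OVOL1 had 5, 0 and 4 counts in vehicle, 3, 0 and 6 with TGFβ, 0, 2 and 2 with Aramchol and 0, 4 and 0 with both, or 26 in all 12 libraries. It was at or near the floor throughout, and no fold change is given. OVOL2 had 7, 17 and 10 counts in vehicle, 6, 3 and 1 with TGFβ, 6, 6 and 5 with Aramchol and 2, 10 and 7 with both. Each TGFβ library had fewer OVOL2 counts than each vehicle library, by 1 count at the closest. How many of all tested genes separate in this way was not counted. The fold change was -1.62 with a 95% interval of -3.02 to -0.22 (edgeR adjusted p = 0.0656, and 0.0430 without TGFβ library 1). OVOL2 shares 59 exon bases on the same strand with SNX5, a gene with 8956 to 11555 counts per library, so single reads may be misassigned. SNX5 itself differed by 0.02 between TGFβ and vehicle (edgeR adjusted p = 0.798).

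ESRP2 (ENSG00000103067, chromosome 16, 68229033 to 68238102, minus strand) was the epithelial splicing regulator these cells expressed. It stood at 21.5, 22.7 and 14.5 CPM in vehicle and at 15.7, 15.9 and 14.9 CPM with TGFβ. With Aramchol it was at 19.3, 20.9 and 17.3 CPM and with both at 15.6, 15.8 and 13.0 CPM. Vehicle library 3 was under all 3 TGFβ libraries, while vehicle libraries 1 and 2 were above all of them. The fold change with TGFβ was -0.34 (SE 0.13, 95% interval -0.62 to -0.05) and was not called (edgeR adjusted p = 0.0609). Without vehicle library 3 it was -0.51 and called (0.000356), with a term for number 3 it was -0.32 and called (0.00491), and without vehicle library 2 it was -0.22 (0.268). ESRP2 shares 227 exon bases with NFATC3 on the opposite strand, whose fold change was 0.09 (edgeR adjusted p = 0.384).

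ESRP1 (ENSG00000104413, chromosome 8, 94641074 to 94707466, plus strand), the paralog of ESRP2, had 8, 2 and 7 counts in vehicle, 2, 4 and 5 with TGFβ, 4, 5 and 4 with Aramchol and 6, 5 and 3 with both. The 17 counts in vehicle correspond to a pooled level of 0.0508 to 0.140 CPM and the 11 with TGFβ to 0.0308 to 0.110 CPM (exact Poisson 95% intervals, for counting error only). A difference between the groups was not detectable at this depth.

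The response to TGFβ was measured a second time in cells that also received Aramchol, in libraries that share no sample with the first comparison. Both comparisons come from the same fit and share its estimate of the spread, so they are not fully independent. TGFβ + Aramchol against Aramchol lowered 4 of the 8 tested regulators and raised 0, where 14.2% of all tested genes were called lower and 16.0% higher (3064 and 3450, and 3493 and 3112 with upper quartile scaling). ELF3 fell by 2.24 (SE 0.11, edgeR adjusted p = 2.59e-10), EHF by 2.08 (SE 0.29, 4.39e-05) and KLF4 by 0.75 (SE 0.14, 0.000474), each kept under all 21 alternatives. ESRP2 fell by 0.37 (SE 0.13, edgeR adjusted p = 0.0461), with the 2 groups apart in every library (17.3 to 20.9 against 13.0 to 15.8 CPM). The ESRP2 call was lost in 8 of the 12 fits that left out 1 library, at an adjusted p of up to 0.178, and was kept with a term for number 3 (0.00169).

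GRHL1 had a fold change of -0.29 in this comparison (SE 0.13, edgeR adjusted p = 0.0948), against -0.40 without Aramchol. KLF5 had -0.02 (95% interval -0.15 to 0.11, edgeR adjusted p = 0.856), against -0.29 without Aramchol. The median over the 8 was -0.34, against -0.01 over all tested genes. GRHL2 and OVOL2 had fold changes of -0.30 and 0.18 with intervals over 2 units wide.

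**Figure D3:**
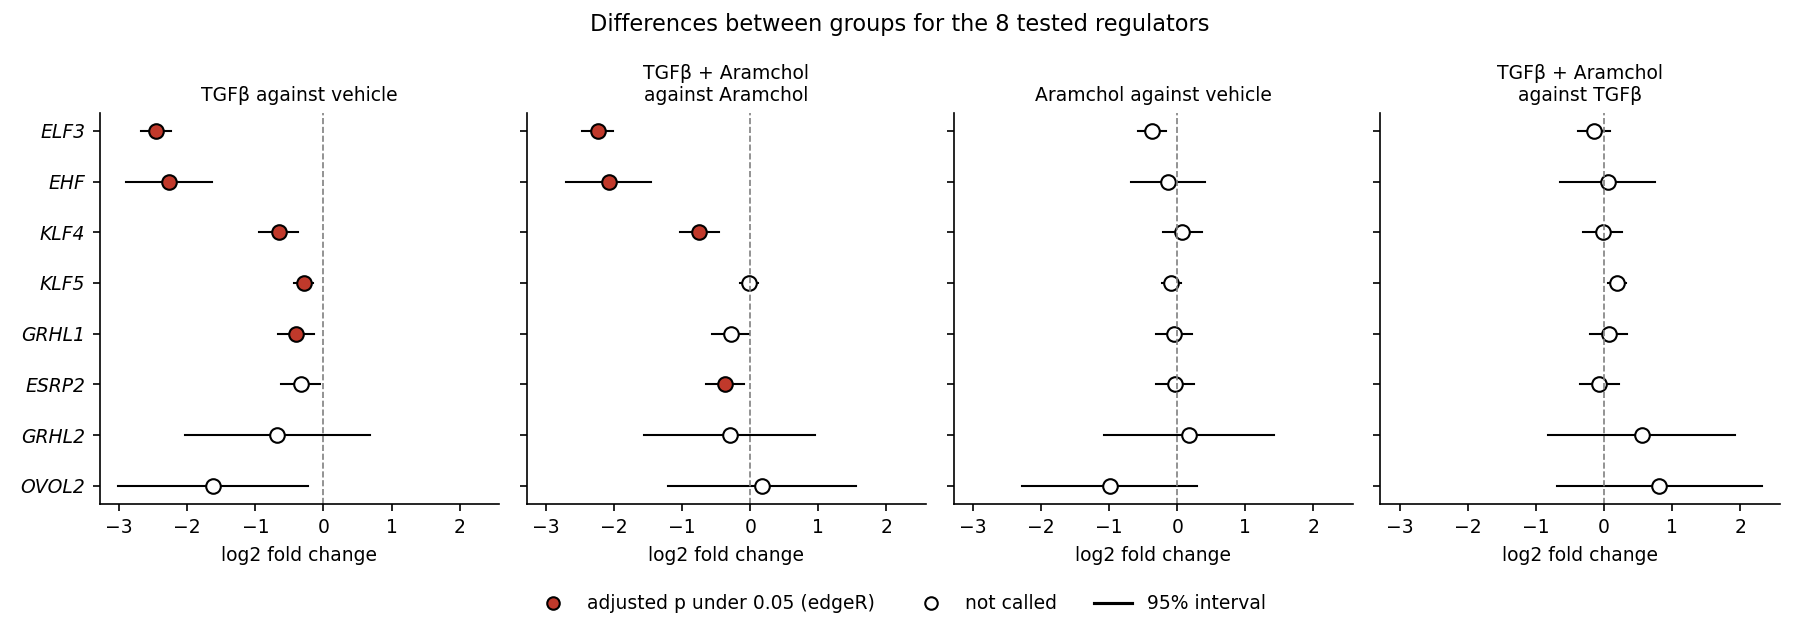
Log2 fold change (point) and 95% interval (line) of the 8 tested regulators in 4 comparisons, with filled points for an adjusted p under 0.05 by edgeR. ELF3 and EHF lie near -2 in both comparisons that add TGFβ, and all points of both comparisons that add Aramchol are open.

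TGFβ + Aramchol against vehicle lowered 5 regulators, where 17.0% of all tested genes were called lower (3665, and 4410 with upper quartile scaling). ELF3 fell by 2.61, EHF by 2.22 and KLF4 by 0.68 on the log2 scale (edgeR adjusted p = 4.77e-11, 2.03e-05 and 0.000971). ESRP2 fell by 0.40 (0.0274) and GRHL1 by 0.34 (0.0482). The GRHL1 call was lost in 11 of the 12 fits that left out 1 library and the ESRP2 call in 3, without vehicle library 1, vehicle library 2 or TGFβ + Aramchol library 3. KLF5 had a fold change of -0.11 (95% interval -0.24 to 0.03, edgeR adjusted p = 0.222). This comparison shares its vehicle libraries with the first one.

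Aramchol against vehicle changed 0 of the 8 tested regulators by edgeR, where 77 of all tested genes (0.357%) were called. At an unadjusted p under 0.05 it was 1 of 8, ELF3, near the 11.7% of all tested genes at that threshold. DESeq2 called the same gene, with 4 of the 8 given no adjusted p by DESeq2. ELF3 was at 24.2 to 26.8 CPM with Aramchol against 30.3 to 35.8 CPM in vehicle. Its fold change was -0.36 (SE 0.10, 95% interval -0.57 to -0.16, edgeR adjusted p = 0.143). The call appeared with a term for number 3 (0.00527), from the libraries numbered 1 and 2 alone (0.00128), without vehicle library 3 (0.0307), without the filter on low counts (0.00741) and with DESeq2 (0.0237), at fold changes of -0.42 to -0.36.

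The other abundant regulators had Aramchol fold changes of 0.07 for KLF4 (95% interval -0.21 to 0.36), -0.09 for KLF5 (-0.22 to 0.05), -0.04 for GRHL1 (-0.31 to 0.22) and -0.03 for ESRP2 (-0.31 to 0.25). The largest change within these intervals was a rise of about 1.3-fold, for KLF4, and the interval of KLF5 was the narrowest. For EHF the fold change was -0.14 with an interval of -0.68 to 0.41, and for OVOL2 it was -0.99 with an interval of -2.27 to 0.29. KLF4 was called higher by 0.25 from the libraries numbered 1 and 2 alone (edgeR adjusted p = 0.00922), where the Aramchol libraries were at 103 and 96.4 CPM, and by no other alternative.

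Aramchol on top of TGFβ, read from TGFβ + Aramchol against TGFβ, changed 0 of the 8 tested regulators by edgeR and 0 by DESeq2 (4 of the 8 with no adjusted p), where 2.25% of all tested genes were called. At an unadjusted p under 0.05 it was 1 of 8, KLF5, near the 17.2% of all tested genes at that threshold. ELF3 had a fold change of -0.15 (95% interval -0.38 to 0.09), KLF4 of -0.02 (-0.31 to 0.27), GRHL1 of 0.07 (-0.20 to 0.34), ESRP2 of -0.07 (-0.36 to 0.22) and EHF of 0.05 (-0.64 to 0.75). ELF3 thus stayed under 7 CPM in every library with both agents, and the interval leaves room for a recovery of at most 0.09 out of a fall of 2.46.

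KLF5 lay at 40.3 to 43.8 CPM with both agents and at 35.0 to 39.8 CPM with TGFβ alone. Its fold change was 0.19 (SE 0.06, 95% interval 0.05 to 0.32, edgeR adjusted p = 0.143). It was called from the libraries numbered 1 and 2 alone, at 0.27 (0.00474), and by none of the other 20 alternatives.

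Whether the TGFβ response differed with Aramchol was tested as the interaction of the 2 agents. It was called for 0 of the 8 regulators by edgeR and 0 by DESeq2 (4 of the 8 with no adjusted p), where 3 of all tested genes (0.0139%) were called. KLF5 had an interaction of 0.27 (SE 0.09, 95% interval 0.08 to 0.46), the only one of the 8 with an unadjusted p under 0.05, as 5.27% of all tested genes had, and an adjusted p of 0.840 (edgeR). From the libraries numbered 1 and 2 alone it was 0.40 (0.0154). The interaction was 0.22 for ELF3 (95% interval -0.09 to 0.53), 0.19 for EHF (-0.70 to 1.07), 0.11 for GRHL1 (-0.27 to 0.49), -0.04 for ESRP2 (-0.44 to 0.37) and -0.09 for KLF4 (-0.50 to 0.31). For the regulators with few counts it was 1.80 for OVOL2 (-0.18 to 3.78) and 0.37 for GRHL2 (-1.48 to 2.23).

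**Figure D4:**
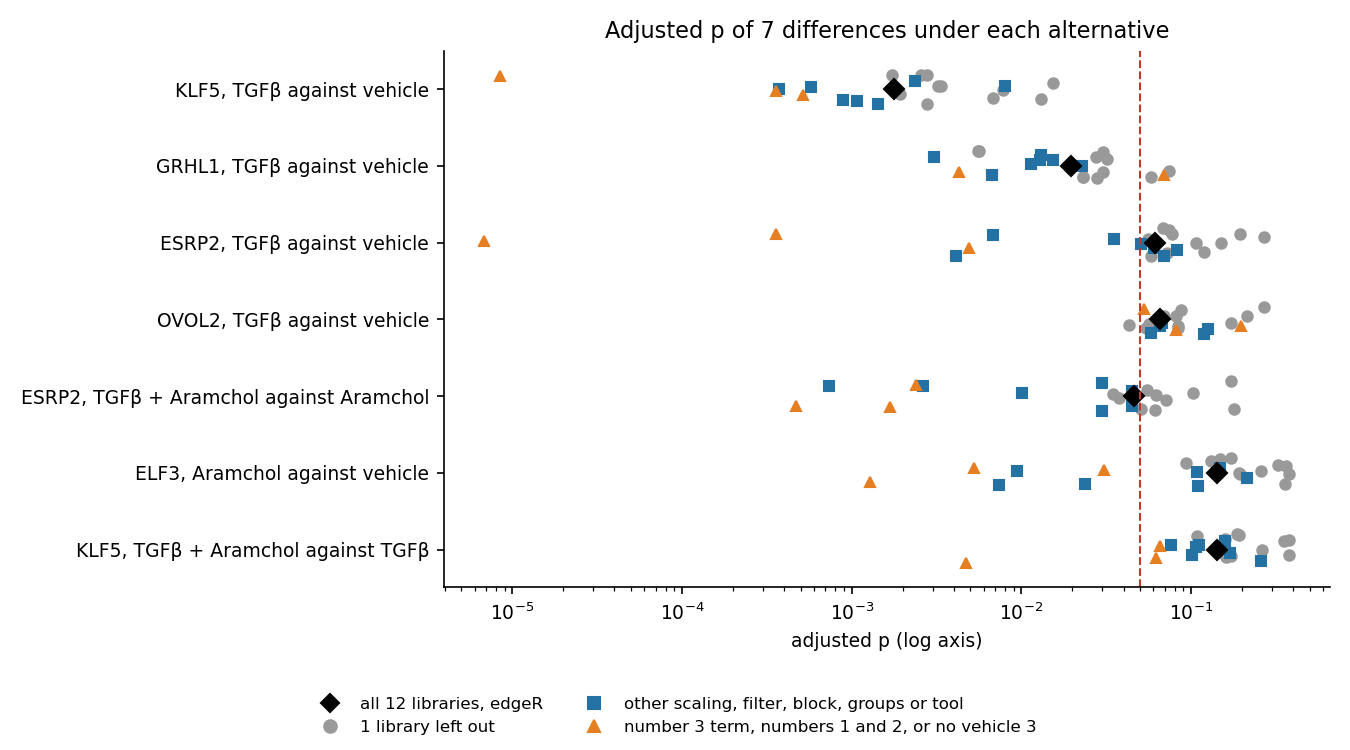
Adjusted p (log axis) of 7 differences under each alternative fit (grey points leave out 1 library, blue squares change scaling, filter, block, groups or tool, orange triangles set the libraries numbered 3, or vehicle library 3, apart), with the value from all 12 libraries as a diamond and a dashed line at 0.05. KLF5 with TGFβ stays left of the line in every fit. ESRP2 with TGFβ and ELF3 with Aramchol cross it in the fits that treat number 3 apart and also in some of the blue-square fits.

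Related genes were taken from 6 lists with 103 genes in all, of which 92 were tested in the same fit. With TGFβ, 29 of the 92 were called higher and 29 lower than in vehicle, against 18.9% and 18.1% of all tested genes. These shares apply to every list count for TGFβ against vehicle below. The list of junction and membrane genes, many of them known targets of these regulators, had 8 of 26 higher and 11 lower, with a median of -0.14. CDH1, the adherens junction cadherin, fell from 72.8 ± 9.67 to 11 ± 0.833 CPM (SD, n = 3) and TJP3, a tight junction scaffold, by 3.02 on the log2 scale. CLDN4, a claudin, rose by 1.87 and CDS1, an enzyme of phospholipid synthesis, by 1.85, so the list did not move one way.

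Of 10 tested repressors of the epithelial state 8 were higher with TGFβ and 1 lower, with a median of 0.50. SNAI1 rose from 4.37 ± 0.748 to 48.3 ± 2.24 CPM and SNAI2 from 6.81 ± 1.76 to 53.1 ± 3.63 CPM (SD, n = 3). TCF4, an E protein, rose by 1.51 on the log2 scale, and TWIST1 fell by 0.70. The ZEB factors, the partners of GRHL2 and OVOL factors in mutual repression, were already abundant in vehicle. ZEB1 was at 25.8 ± 5.35 CPM there and at 32.9 ± 0.992 CPM with TGFβ, and ZEB2 at 37.1 ± 1.16 and 42.6 ± 1.40 CPM (fold changes 0.35 and 0.20, edgeR adjusted p = 0.0254 and 0.0106).

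Relatives of the regulators within the 5 families split, with 5 of 20 higher and 8 lower with TGFβ (median 0.05). KLF7 rose by 1.53 and KLF10, an early TGFβ-induced factor, by 1.09, whereas KLF15 fell by 3.25 and KLF2 by 1.17 on the log2 scale. GRHL3, the third grainyhead-like factor, fell by 0.62 from 1.80 ± 0.114 to 1.17 ± 0.226 CPM (edgeR adjusted p = 0.0317). Among 11 other epithelial transcription factors 2 were higher and 6 lower (median -0.63). FOXA2 fell by 0.93, TFAP2C by 0.63 and TP63 by 2.76, and GATA6 rose by 0.83.

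Splicing regulators other than ESRP1 and ESRP2 had 3 of 18 higher and 3 lower with TGFβ (median 0.04). These counts were near the shares over all tested genes, 18.9% and 18.1%. NOVA2 rose from 0.751 ± 0.0583 to 12.7 ± 1.29 CPM, the widest change in the list, and RBM47, an epithelial RNA-binding protein, fell from 13.5 ± 0.739 to 6.43 ± 1.04 CPM (SD, n = 3). MBNL2 rose by 0.48 and NOVA1 fell by 0.82 on the log2 scale. With a term for number 3, 5 of the 18 were called higher, and 6 from the libraries numbered 1 and 2 alone. Of 7 tested genes whose transcripts ESRP proteins are known to splice, 3 were higher and 0 lower: CD44 by 1.93, ENAH by 0.69 and NUMB by 0.16. CTNND1, a catenin, had a fold change of -0.17 and was not called (edgeR adjusted p = 0.105). At an unadjusted p under 0.05 it was 4 of the 7, against 45.0% of all tested genes, DESeq2 called 3, and upper quartile scaling called 1 lower. FGFR2, the classic ESRP target, had 4 or fewer counts in every library. These are gene-level counts and hold no measure of splicing.

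**Figure D5:**
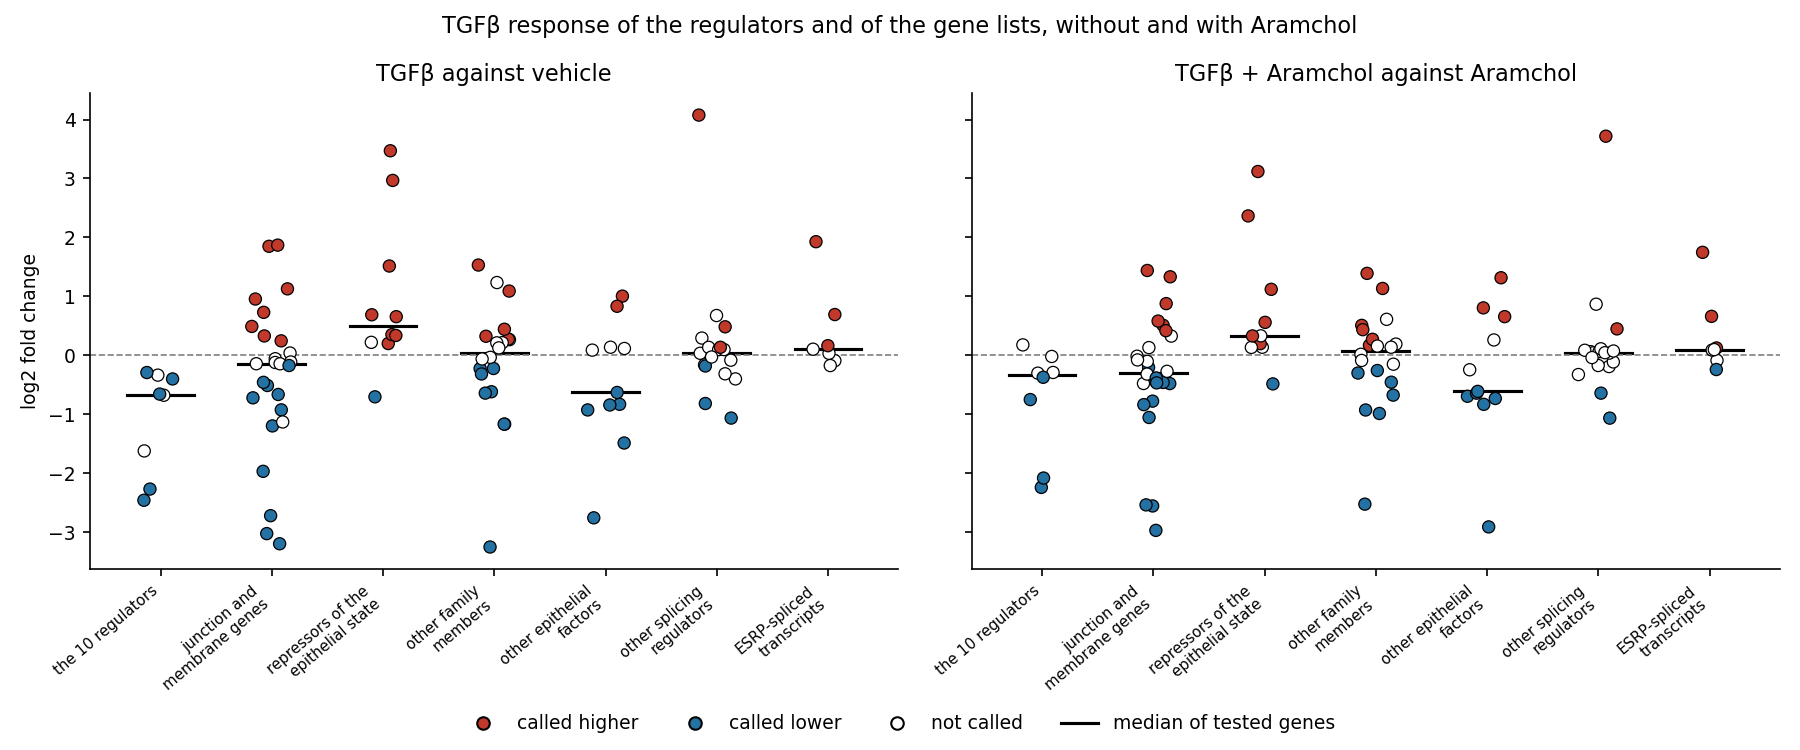
Log2 fold change of the tested regulators and of each tested gene of the 6 lists for TGFβ against vehicle (left) and TGFβ + Aramchol against Aramchol (right), with colour for an adjusted p under 0.05 by edgeR and a bar at the median. The regulators have no called rise in either panel, whereas each list but the ESRP-spliced genes in the left panel has calls in both directions.

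In TGFβ + Aramchol against Aramchol, 26 of the 92 list genes were higher and 28 lower, against 16.0% and 14.2% of all tested genes. Splicing regulators had 2 higher and 2 lower, which became 4 and 4 with a term for number 3, and other epithelial factors had 3 higher, which became 1 from the libraries numbered 1 and 2 alone. Aramchol against vehicle had 1 called list gene of the 92, where 0.357% of all tested genes were called. It was MBNL2, by 0.32 (edgeR adjusted p = 0.0313). At an unadjusted p under 0.05 it was 14 of the 92, against 11.7% of all tested genes, and DESeq2 called 2. In TGFβ + Aramchol against TGFβ, 3 were higher and 3 lower, where 2.25% of all tested genes were called. FOXA2 was higher by 0.34, MBNL2 by 0.29 and KLF9 by 0.25. CLDN4, CLDN7 and SNAI1 were lower, with -0.58, -0.44 and -0.39. At an unadjusted p under 0.05 it was 30 of the 92, against 17.2% of all tested genes, and DESeq2 called 12. SNAI1 still stood at 36.8 ± 2.83 CPM there, and ELF3 and EHF did not pass in this comparison. The interaction was called for 0 of the 92 by edgeR and by DESeq2, with 8 at an unadjusted p under 0.05, against 5.27% of all tested genes.

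Markers of other cell types moved beside the regulators. The summed level of 8 fibroblast markers was 145 to 181 CPM in vehicle, 348 to 405 CPM with TGFβ, 158 to 162 CPM with Aramchol and 272 to 308 CPM with both. PDGFRB alone stood at 47.7 ± 3.25 CPM in vehicle and 205 ± 22.4 CPM with TGFβ (SD, n = 3), so the sum largely follows this gene. Of the 8 markers 5 were called higher with TGFβ and 1 lower. Of the 8 keratinocyte markers 5 were tested, with 4 higher and 1 lower, and their sum was 22.8 to 24.0 CPM in vehicle and 29.7 to 34.6 CPM with TGFβ. The hepatocyte (2 of 6 tested, 2 higher) and leukocyte lists (2 of 6 tested, 1 higher and 1 lower) gave few tested genes. All 6 endothelial markers were tested, with 1 higher and 2 lower. TTR, CD3E and KRT1 had 0 counts in every library. Of 7 tested cholangiocyte markers 3 were higher and 3 lower. The part of these shifts in the regulator changes was not tested.

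Across the 12 libraries the levels of the abundant regulators can be set side by side with those of other genes, as a description in which all points share the 4 groups. Among 13628 tested genes with a symbol and a mean of at least 1 CPM, those most like ELF3 in log2 CPM were TBC1D8 (Pearson r = 0.997) and HSBP1L1 (0.995), and those most like EHF were HMGB3 (0.991) and FGA (0.986). For KLF4 they were DHX58 (0.976) and B4GALT5 (0.972), for ESRP2 FOSL2 (0.967) and C1orf116 (0.966), for GRHL1 ITGB3BP (0.938) and GIGYF2 (0.930), and for KLF5 IMMP2L (0.887) and CSTF1 (0.865). Among the regulators themselves, ELF3 was closest to EHF (r = 0.956) and KLF4 (0.909), ESRP2 to EHF (0.863), and GRHL1 and ESRP2 were the least alike (0.276).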

How the data were processed

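Counts of reads per gene in 12 libraries of H69 cells were deposited by the authors as 1 table with gene identifiers, exon coordinates and exon lengths. Per the labels' protocols, Trizol was used for extraction and an IDT kit for the libraries. The tools were, per the submitters' processing notes, STAR 2.7.9a, featureCounts of Subread and DESeq2, with GRCh38. Annotation release and strand setting: not given in the sources used here. The exon length deposited by the authors (merged exons per gene, another unit than counts) was used for RPKM.

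Genes were matched to symbols by Ensembl identifier (62625 of 62703), filtered with filterByExpr, scaled by TMM and fitted with the quasi-likelihood test of edgeR 4.0.16 (R 4.3.3) with 1 mean per group over 12 libraries. The biological coefficient of variation was 8.90%. Groups came from the sample titles. A gene was called at an adjusted p under 0.05 (Benjamini-Hochberg) within each of 6 contrasts. Totals of 52279922 to 70339925 counts leave genes near 3 counts undetermined. Counts carried no molecular identifiers, so Poisson intervals cover counting error only. Libraries of a group were checked for duplicates, and none were found. The procedure was tested on simulated data.

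The regulators, the 12 lists and the tests were chosen with earlier results of these data known. The text names all 10 regulators, the 4 genes of each pathway list with the smallest p in TGFβ against vehicle, up to 3 called ones per list in the comparisons of Aramchol with its control, and the 2 genes most like each regulator by Pearson r. EPCAM, KRT7, KRT19, SOX9 and genes with overlapping exons, as well as ZEB1, ZEB2, GRHL3, FGFR2 and PDGFRB, were named after their values were seen. Alternatives were DESeq2 1.42.0, scaling by RLE or by upper quartile, a stricter filter or none, a replicate block, a term for number 3, the libraries numbered 1 and 2, the compared groups alone, and leaving out each library. List counts under other settings were added after seeing the data.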

Additional observations from a re-analysis of the deposited data

How the results depend on the processing

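Of the regulators, ELF3, EHF and KLF4 kept their calls under every alternative in the 3 comparisons that add TGFβ, and KLF5 did so in TGFβ against vehicle. No called value changed sign. For Aramchol against vehicle the number of called regulators was 0, and it was 1 without the filter, with the replicate block, with a term for number 3 and with DESeq2, and 2 from the libraries numbered 1 and 2 alone. From those libraries it was also 1 in TGFβ + Aramchol against TGFβ and 1 in the interaction. For TGFβ + Aramchol against vehicle it went from 5 to 3 with only the groups compared. Leaving out 1 library gave 4 to 6 called regulators for TGFβ against vehicle, 0 to 1 for Aramchol against vehicle (1 without vehicle library 3), 3 to 4 for TGFβ + Aramchol against Aramchol and 3 to 4 for TGFβ + Aramchol against vehicle (3 without vehicle library 1 or 2), and 0 in the other comparisons. The causes were not tested.

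The replicate numbers were not treated as pairs. Same-numbered libraries deviated together at r = 0.00739 to 0.221 over 18 pairs, with 7 over 0.1, and 12 of the pairs correlated best with their own number. The replicate block gave 1 called regulator for Aramchol against vehicle, ELF3 (0.00945), and also called ESRP2 with TGFβ (0.00676) and GRHL1 in TGFβ + Aramchol against Aramchol (0.0366).

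Counts over all tested genes moved more. For Aramchol against vehicle 77 became 531 without the filter, 464 with the block, 538 with a term for number 3, 1544 from libraries 1 and 2, 5 with only the groups compared, 395 with DESeq2 and 16 to 611 with 1 library left out. The 486 of TGFβ + Aramchol against TGFβ became 1278, 1519, 1683, 1853, 960, 1045 and 55 to 1209 under the same settings. The 3 of the interaction became 151, 23, 31 and 191 under the first 4, 30 with DESeq2 and 0 to 7 with 1 library left out. Upper quartile scaling changed the split for Aramchol against vehicle from 51 higher and 26 lower to 37 and 38, and put more genes lower than higher in each comparison that adds TGFβ, against more higher than lower with TMM. At this depth nothing can be said of changes in OVOL1 and ESRP1.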
